A study of Mus musculus with 60 samples.

Results

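Genes of the unfolded protein response and of the integrated stress response were followed through 3 RNA-seq experiments on mouse intrahepatic cholangiocyte organoids. The genes and the gene lists used below were chosen with earlier results of these data known. Counts set beside the share of all genes are therefore descriptions. The 10 members were picked by gene symbol, with no threshold on their values: Hspa5, Sdf2l1, Dnajb9, Herpud1, Xbp1, Atf4, Ddit3, Trib3, Asns and Chac1. Their Ensembl identifiers were found in all 3 count tables, which held 23440 genes for the culture experiment, 23068 for the passage experiment and 28773 for the single organoids. All 10 passed the filter on low counts in every comparison. Organoids are hollow epithelial structures, here grown from bile duct fragments of untreated male C57BL/6N mice of 3 to 4 months with no genetic modification, in HepatiCult medium with Matrigel, a basement membrane extract. The culture experiment compared 3 cultures in solid Matrigel domes with 3 cultures in suspension, where dilute Matrigel was kept on an orbital shaker. The paper describes 3 pools of several mice each for it, and the same organoids in both formats. Sets 1 to 4 were cultures from 1 mouse each. Sets 1, 3 and 4 were sequenced in bulk at passage 4 and passage 11 (2 technical replicates each, summed here), and single organoids from suspension culture were sequenced for Set 1 at passage 11 (8 kept by the study), Set 2 at passage 3 (10), Set 3 at passage 3 (5) and Set 4 at passage 4 (12). For the single organoids, set, mouse and passage cannot be told apart, and organoids with a dark necrotic lumen were not picked. The sources used here do not give the format, domes or suspension, of the bulk passage cultures.

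Cells that load more protein into the endoplasmic reticulum (ER) than they can fold activate the unfolded protein response through the sensors IRE1, PERK and ATF6. IRE1 splices the mRNA of Xbp1, a transcription factor that, with ATF6, raises ER chaperones and degradation factors. PERK and related kinases phosphorylate the initiation factor eIF2, which slows translation in general while favouring that of Atf4; lack of amino acids or haem reaches the same step, hence the name integrated stress response. Cholangiocytes line the bile ducts and pass many membrane transporters and secreted proteins through the ER. The members fall into 3 roles. Hspa5 encodes BiP, the main ER chaperone, Sdf2l1 and Dnajb9 encode partners of BiP, and Herpud1 encodes a membrane protein of ER-associated degradation. Xbp1, Atf4 and Ddit3 (which encodes CHOP) are the transcription factors. Trib3, a pseudokinase that dampens the response, Asns, asparagine synthetase, and Chac1, an enzyme that degrades glutathione, are targets of ATF4 and CHOP. The counts come from the 3′ ends of transcripts and cannot tell spliced from unspliced Xbp1 mRNA, nor do they measure phosphorylation or translation.

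The 10 genes are protein coding and lie apart in GRCm38. Hspa5 is at chr2:34771970-34777547 on the plus strand, Trib3 at chr2:152337422-152344032 on the minus strand and Chac1 at chr2:119351229-119354381 on the plus strand. Ddit3 is at chr10:127290774-127296288, Xbp1 at chr11:5520659-5525893, Atf4 at chr15:80255184-80257541 and Herpud1 at chr8:94386438-94395377, all on the plus strand. Sdf2l1 is at chr16:17130138-17132383, Dnajb9 at chr12:44205559-44210326 and Asns at chr6:7675169-7693254, all on the minus strand.

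Transcription factors of the response are known to act through short promoter elements. RefSeq promoters of GRCm38.p6, from 250 bases before to 50 after the transcription start, were searched on both strands for 4 motifs, and all 10 members had an entry. The ER stress response element, CCAAT and CCACG with 9 bases between, was found in 39 of 32851 promoters (0.119%) and in 1 member, Hspa5, at -65 to -47. The short element II, ATTGG and CCACG with 1 base between, was found in 12 promoters (0.0365%) and in 1 member, Herpud1, at -52 to -42. The UPR element TGACGTGG was found in 222 promoters (0.676%) and in none of the members. The C/EBP-ATF response element, TGATG and AA with 1 base between, which ATF4 binds with C/EBP partners, was found in 1304 promoters (3.97%) and in 4 members: Asns at -23 to -16 and, on the opposite strand, Chac1 at -193 to -186, Trib3 at 15 to 22 and Herpud1 at -112 to -105. The stretches around these matches are printed because they hold the elements of BiP, Herpud1 and the ATF4 targets named here; each is 5′ to 3′ on the strand of the gene, and capitals mark the matches. They lie at chr2:34771995-34772073 (Hspa5, plus strand), chr8:94386287-94386417 (Herpud1, plus), chr2:119351019-119351086 (Chac1, plus), chr2:152344039-152344076 (Trib3, minus) and chr6:7693210-7693262 (Asns, minus). Positions count from the RefSeq starts, whereas the gene spans above come from another annotation with other starts. The Hspa5 stretch and most of the Asns stretch therefore lie inside those spans, and the Trib3 match lies outside its span. A match describes letters in this window and is not a measured binding site.
Hspa5: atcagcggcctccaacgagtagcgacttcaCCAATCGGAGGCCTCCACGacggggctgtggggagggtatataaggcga
Herpud1: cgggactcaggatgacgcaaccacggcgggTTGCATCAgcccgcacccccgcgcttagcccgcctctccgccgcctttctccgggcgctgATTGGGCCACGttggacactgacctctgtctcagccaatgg
Chac1: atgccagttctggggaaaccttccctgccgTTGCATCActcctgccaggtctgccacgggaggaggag
Trib3: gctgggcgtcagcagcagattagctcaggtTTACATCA
Asns: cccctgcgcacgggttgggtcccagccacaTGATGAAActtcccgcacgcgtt

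The libraries held 1776490 to 14761853 counts in the culture experiment, 1486347 to 5532630 in the passage experiment and 1059002 to 11175868 in the single organoids. Values are CPM, counts scaled to a common library total by TMM. All 10 cholangiocyte markers were detected in every library. Between domes and suspension, 4 of them were higher and 1 lower in domes, where 15.02% and 14.7% of all genes were. Krt19 was at 4092 and 1026 CPM, and Spp1 at 954 and 2914 CPM, in domes and suspension. Between passages, 1 was higher at passage 11 and none lower, where 10.1% of all genes were called in each direction. Of the markers of other liver cells, the endothelial list summed to at most 3.83 CPM and the mesenchymal list to at most 6.05 CPM in any library. Part of the other lists moved with the groups: the macrophage list summed to 207 to 281 CPM in domes and 525 to 649 in suspension, and to 381 to 624 at passage 11 and 876 to 1160 at passage 4. Cd14 gave most of that sum and was lower in domes, with means of 190 and 583 CPM. Cd68 was higher in domes, with means of 41.2 and 4.74 CPM. It ran from 6.02 to 90.2 CPM in domes and from 2.74 to 8.04 in suspension, so the groups overlapped. Between passages Cd14 was at 469 CPM at passage 11 and 1040 at passage 4. The other macrophage markers that were counted stayed low in these bulk libraries. Csf1r was at or below 3.24 CPM and Ptprc at or below 1.47 CPM. Lyz2, C1qa, Tyrobp and Adgre1, where counted, were at or below 0.449 CPM. The hepatocyte list summed to 612 to 948 CPM in domes and 305 to 677 in suspension, and to 811 to 1166 at passage 11 and 336 to 752 at passage 4. Ttr had the highest mean of the list, 432 and 420 CPM in domes and suspension. Ass1 (176 and 17.1 CPM) and Apoa1 (58.4 and 2.21) were higher in domes and Fah (6.92 and 22.02) was lower. Apoa1 ran from 4.40 to 159 CPM across the dome cultures. Alb stayed at or below 4.96 CPM in these bulk libraries. Mitochondrial transcripts made up 1.64 to 2.02% of counts in domes and 3.72 to 4.02% in suspension, and 0.895 to 1.71% at passage 11 and 1.99 to 2.63% at passage 4. The part of these shifts in the results that follow was not tested. In bulk libraries, fewer cells that express a gene and less of its RNA per cell cannot be told apart.

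The first comparison asked how the stress genes differ between the 2 ways of growing the organoids. Ddit3, Herpud1 and Xbp1 were higher in domes than in suspension, by 7.27-fold, 2.29-fold and 1.56-fold. These 3 of 10 members passed an adjusted P-value of 0.05, all of them higher in domes, while 29.8% of the 12699 genes tested passed in either direction, 15.02% higher and 14.7% lower. The median log2 fold-change of the members was 0.25 against -0.04 over all genes.

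Among the ER chaperones and their partners, the levels in domes and suspension lay close together. Hspa5 was at 281, 322 and 415 CPM in dome cultures 1, 2 and 3 and at 295, 290 and 285 CPM in suspension cultures 1, 2 and 3. Dome culture 1 lay just below the narrow range of the suspension cultures and the other dome cultures above it (log2 fold-change 0.23 ± 0.20 SE, adj. P = 0.424). Sdf2l1 was at 99.7, 59.4 and 91.3 CPM in domes and at 69.0, 74.0 and 69.5 CPM in suspension, so that the groups overlapped (0.25 ± 0.22, adj. P = 0.401). Dnajb9 was at 17.4, 17.6 and 17.0 CPM in domes and at 12.2, 14.4 and 16.7 CPM in suspension, without overlap but not past the test (0.25 ± 0.22, adj. P = 0.406). Herpud1, the degradation factor, was the one of these 4 that passed the test. It was at 123, 236 and 266 CPM in domes and at 78.9, 89.1 and 103 CPM in suspension. Every dome culture was again above every suspension culture (log2 fold-change 1.19 ± 0.28, adj. P = 0.0119).

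Of the transcription factors, Xbp1 and Ddit3 rose in domes and Atf4 did not pass the test. Xbp1 was at 659, 581 and 694 CPM in domes and at 346, 400 and 497 CPM in suspension. The groups did not overlap, but the difference (0.64 ± 0.21, adj. P = 0.0458) was close to the threshold and was called in 6 of 13 alternative analyses. Ddit3 was at 9.67, 66.0 and 17.0 CPM in domes and at 2.53, 5.44 and 3.79 CPM in suspension, from 31 to 127 counts and 12 to 55 counts. All dome cultures exceeded all suspension cultures, although they differed widely among themselves, and the difference (2.86 ± 0.66, adj. P = 0.0113) was called in 13 of 13 alternatives. Atf4 was at 141, 159 and 79.7 CPM in domes and at 162, 215 and 158 CPM in suspension, with the 2 groups overlapping at their edge (-0.49 ± 0.26, adj. P = 0.184).

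The 3 targets of ATF4 and CHOP did not pass the test without a block. Trib3 was at 13.02, 32.3 and 23.1 CPM in domes and at 5.05, 15.8 and 9.44 CPM in suspension, higher in the dome culture of every number (1.10 ± 0.43, adj. P = 0.0803). With the culture number as a block, Trib3 was called at a log2 fold-change of 1.22 (adj. P = 0.00289). Asns was at 115, 114 and 126 CPM in domes and at 75.1, 129 and 96.3 CPM in suspension, where culture 2 exceeded every dome culture (0.24 ± 0.22, adj. P = 0.433). Chac1 was at 11.0, 12.5 and 7.15 CPM in domes and at 7.15, 17.7 and 8.54 CPM in suspension, with the groups fully interleaved (-0.09 ± 0.37, adj. P = 0.885). Leaving out suspension culture 1 left only Ddit3 called, with Herpud1 at adj. P = 0.0581, and leaving out dome culture 3 or suspension culture 3 left 2 members.

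**Figure D1:**
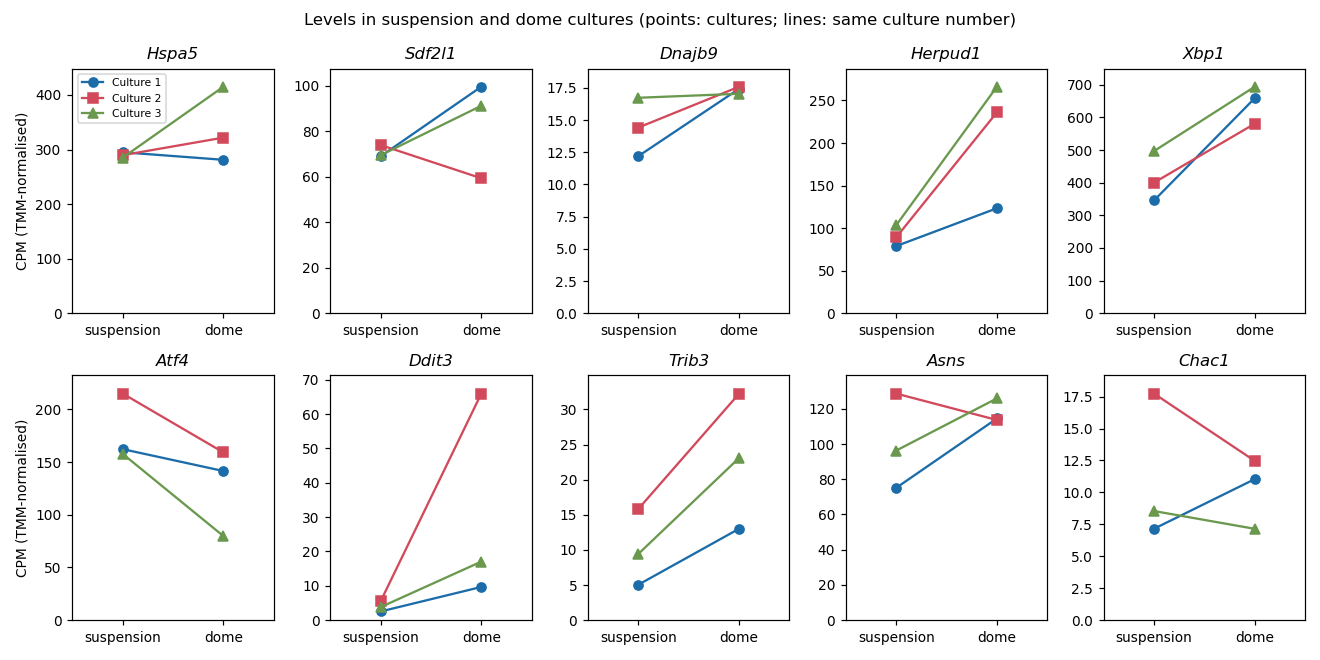
CPM of the 10 members (1 panel each, axis from 0) in the 3 suspension and 3 dome cultures, 1 point for each culture, with lines joining cultures of the same number. Ddit3, Herpud1 and Xbp1 lie higher in all 3 dome cultures than in any suspension culture, and the points of Hspa5, Asns and Chac1 lie close together or interleave.

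Other genes of the pathway were counted from 5 lists, to be read against the 15.02% of all genes that were higher and the 14.7% that were lower in domes. Of 36 tested targets of ATF4 and CHOP, 7 were higher in domes and 4 lower (median log2 fold-change 0.01). The stress-inducible regulator Nupr1 was at 536 CPM in domes and 56.7 in suspension (3.23 ± 0.87), the oxidase Ero1l at 219 and 40.2 (2.43 ± 0.52) and Ddit4, an inhibitor of mTORC1, at 87.0 and 16.7 (2.33 ± 0.40), while the amino acid transporter Slc38a2 was lower in domes (-1.52 ± 0.22). Of 21 sensors and regulators of eIF2, 2 were higher and 4 lower, among them Ppp1r15a, the subunit that directs dephosphorylation of eIF2, which was higher in domes (2.07 ± 0.43). Of 22 ER chaperones and folding enzymes, 3 were higher and 1 lower: the nucleotide exchange factor Sil1 (1.07 ± 0.19) and the disulfide isomerase P4hb (0.97 ± 0.20) rose with Ero1l, which is in both lists, and Hsp90b1, which encodes GRP94, fell (-1.12 ± 0.22). Of 18 tested genes of ER-associated degradation, 3 were higher and none lower, among them Edem2 (0.84 ± 0.26) and Selenok (0.83 ± 0.21). Of 18 heat shock chaperone genes, cytosolic but for the mitochondrial pair Hspd1 and Hspe1, 10 were lower in domes and none higher (median -0.82), with Hsph1 at 16.7 and 85.4 CPM (-2.32 ± 0.28) and Hsp90aa1 at 150 and 629 CPM (-2.06 ± 0.25). Without suspension culture 1, 7 of the 18 were called, all lower. The counts of the other lists were less stable: without suspension culture 1 or 2, 5 of the ATF4 and CHOP targets were higher and 2 lower, and without suspension culture 3, 3 were higher and 2 lower. The degradation list had 1 call without suspension culture 1 or 3, 0 without suspension culture 2 and 6 without dome culture 2, and the sensor list had 2 higher and 1 lower without suspension culture 2 or 3.

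The passage experiment asked how the same cultures differ after long propagation. Ddit3 fell 7.28-fold from passage 4 to passage 11, and Hspa5, Dnajb9 and Herpud1 fell 2.11-fold, 1.74-fold and 1.55-fold, whereas Sdf2l1 rose 1.65-fold. Thus 5 of 10 members passed the test, 1 higher and 4 lower, while 20.3% of the 13738 genes tested passed in either direction, 10.1% higher and 10.1% lower. The median log2 fold-change of the members was -0.79 against -0.05 over all genes. With the Set as a block, since each Set was sampled at both passages, 8 members were called. The share of all genes called with this block was not computed, so 8 is not set against 5 as a result about the members.

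Among the chaperones and their partners, 3 members fell and 1 rose. Hspa5 was at 378, 434 and 392 CPM at passage 11 and at 1227, 702 and 607 CPM at passage 4 in Sets 1, 3 and 4. All 3 Sets were lower at passage 11, Set 1 by the widest margin (log2 fold-change -1.07 ± 0.24, adj. P = 0.0120). Without Set 1, a fit chosen after the data were seen, the log2 fold-change of Hspa5 was -0.66. Dnajb9 was at 20.9, 22.9 and 16.5 CPM at passage 11 and at 32.4, 38.0 and 37.0 CPM at passage 4, without overlap (-0.80 ± 0.17, adj. P = 0.00968). Herpud1 was at 250, 211 and 190 CPM at passage 11 and at 291, 382 and 335 CPM at passage 4, again lower in every Set (-0.63 ± 0.16, adj. P = 0.0201). Sdf2l1 went against its partner Hspa5. It was at 145.9, 150.7 and 148.2 CPM at passage 11 and at 115.9, 77.3 and 76.7 CPM at passage 4 (0.72 ± 0.17, adj. P = 0.0165). The 3 cultures at passage 11 were nearly level, and Set 1 already had the highest Sdf2l1 at passage 4. Hspa5 and Ddit3 were called in 16 of 16 alternatives, Dnajb9 in 15, and Sdf2l1 and Herpud1 in 12 each.

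Ddit3 was the transcription factor with a clear fall. It was at 6.73, 2.58 and 2.54 CPM at passage 11 and at 38.4, 29.2 and 25.3 CPM at passage 4, so the lowest culture at passage 4 lay well above the highest at passage 11 (-2.86 ± 0.34, adj. P = 0.000878). The values at passage 11 rest on 4 to 30 counts. Atf4 was at 473, 239 and 157 CPM at passage 11 and at 625, 605 and 471 CPM at passage 4. Set 1 at passage 11 reached the level of Set 4 at passage 4, and Atf4 did not pass the test (-0.96 ± 0.32, adj. P = 0.0587). With the Set as a block it did (-1.10, adj. P = 0.00441). Xbp1 was at 588, 710 and 861 CPM at passage 11 and at 523, 1032 and 1014 CPM at passage 4, lower in Sets 3 and 4 and slightly higher in Set 1 (-0.25 ± 0.25, adj. P = 0.509).

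In the ATF4 and CHOP targets Set 1 stood apart at passage 11. Trib3 was at 88.2, 21.1 and 15.9 CPM at passage 11 in Sets 1, 3 and 4 and at 124, 129 and 105 CPM at passage 4. Set 1 kept a level close to that of passage 4 while Sets 3 and 4 were far lower (-1.45 ± 0.47, adj. P = 0.0549, and with the Set as a block -1.82, adj. P = 0.00581). Asns was at 254, 101 and 75.7 CPM at passage 11 and at 285, 251 and 211 CPM at passage 4, with the same position of Set 1 (-0.78 ± 0.36, adj. P = 0.156, and with the block -0.97, adj. P = 0.0125). Chac1 was at 80.1, 22.7 and 8.90 CPM at passage 11 and at 56.0, 61.2 and 66.9 CPM at passage 4. Set 1 was the only Set with more Chac1 at passage 11 than at passage 4 (-0.63 ± 0.50, adj. P = 0.404, and with the block -0.99, adj. P = 0.129). The 2 technical replicates of Set 1 at passage 11 gave 85.7 and 75.8 CPM of Trib3 and 80.2 and 65.7 CPM of Chac1 by total count, so both carried the high levels. In the single organoids, Set 1 at passage 11 instead had the lowest mean of the 4 sets for each of these genes. The means were 3.76 CPM of Trib3, 2.58 of Chac1 and 31.7 of Asns. There the other sets were at passage 3 or 4, so the positions are not like for like, and this difference was not tested.

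Sets 3 and 4 alone were fitted after the data were seen, because member values of Set 1 stood apart. This choice rests on the members' own values, so calls in that fit do not test them and are not given. The log2 fold-changes then were -2.59 for Trib3, -1.42 for Atf4, -1.35 for Asns, -1.83 for Chac1 and -3.38 for Ddit3. Leaving out Set 1 at passage 11 alone gave 9 called members, while leaving out Set 3 at either passage or Set 4 at passage 4 left 3. Shares of all genes were not computed for these fits.

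**Figure D2:**
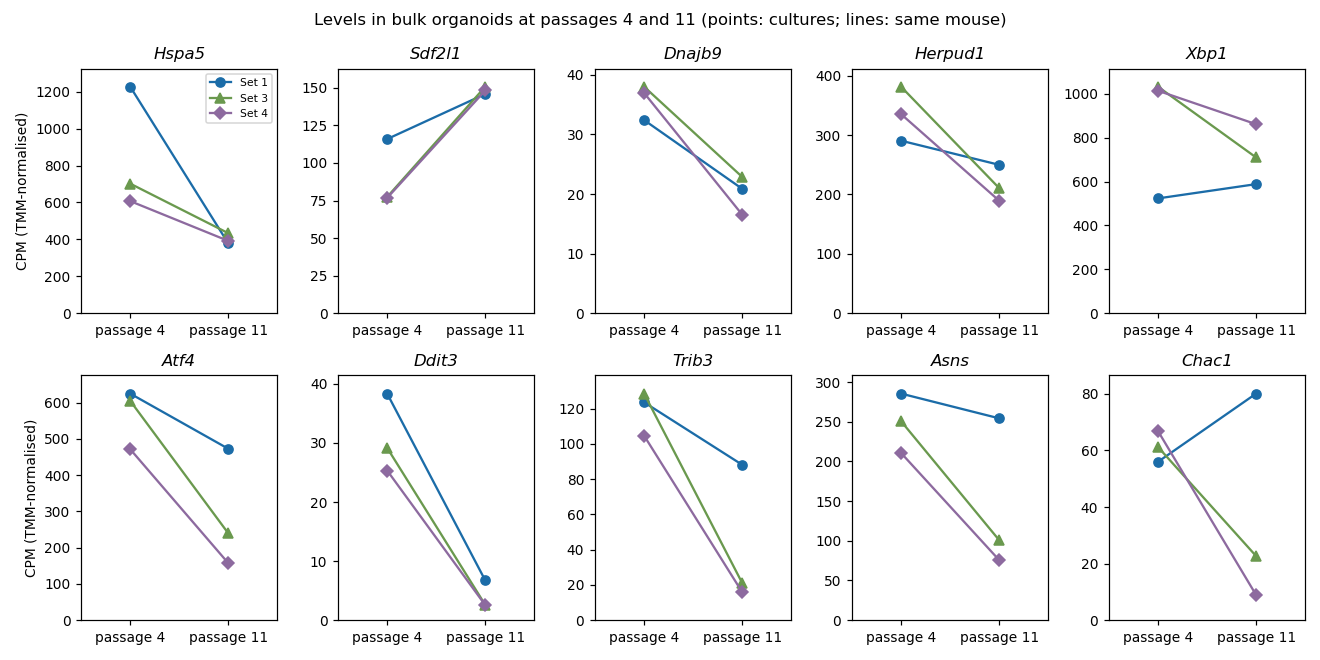
CPM of the 10 members (1 panel each, axis from 0) at passage 4 and passage 11, with a line for each of Sets 1, 3 and 4. The lines of Ddit3, Hspa5, Dnajb9 and Herpud1 fall in all 3 Sets and those of Sdf2l1 rise, while Set 1 stays high for Trib3, Asns and Chac1.

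The same lists were counted between passages, where 10.1% of all genes were called in each direction. Of 38 targets of ATF4 and CHOP, 21 fell and none rose from passage 4 to passage 11 (median log2 fold-change -0.87). With the Set as a block, 26 fell, but the share of all genes was not computed for that fit. Without Set 3 at passage 11, 12 fell. Nupr1 was at 224 CPM at passage 11 and 2295 at passage 4 (-3.35 ± 0.38), the cystine transporter Slc7a11 at 17.0 and 145 CPM (-3.02 ± 0.31), the secreted stress factor Gdf15 at 34.6 and 227 CPM (-2.67 ± 0.52) and the transcription factor Atf3 at 9.52 and 50.4 CPM (-2.30 ± 0.43). Of 21 sensors and eIF2 regulators, 6 fell and 3 rose, with Ppp1r15a (-2.02 ± 0.21), the sensor Atf6 (-1.43 ± 0.23) and the kinase Eif2ak2 (-1.14 ± 0.21) falling and the subunit Eif2b1 rising (0.89 ± 0.14). Of 22 ER chaperones and folding enzymes 4 passed, with Ero1l (-1.59 ± 0.26), Pdia4 (-0.51 ± 0.13) and Hsp90b1 (-0.48 ± 0.15) lower and Dnajc10 higher (0.41 ± 0.13), and their median was 0.04. Of 18 tested genes of ER-associated degradation, 2 fell, Sel1l (-1.39 ± 0.21) and Syvn1 (-1.16 ± 0.21), which encode the core of one ubiquitin ligase complex. Of the 18 heat shock chaperone genes, Hspa1a (-1.09 ± 0.34) and Hspa1b (-1.25 ± 0.33) fell, whose reads can be shared because the genes are near-identical copies, and the mitochondrial Hspd1 rose (0.58 ± 0.15). Leaving out 1 culture reduced the 4 chaperone calls to 1 without Set 1 or 3 at passage 11 or Set 3 or 4 at passage 4, and to 2 without Set 4 at passage 11. The 3 heat shock calls became 1 without Set 1 or 3 at passage 11 and without any 1 culture at passage 4. Without Set 1 at passage 4, 3 degradation genes fell and 1 rose.

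**Figure D3:**
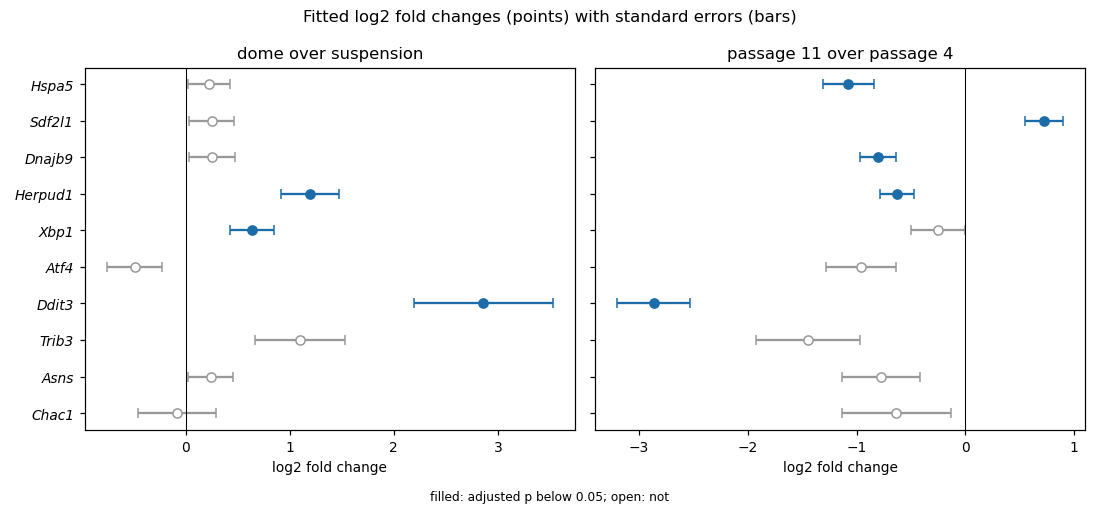
Log2 fold-changes of the 10 members, dome minus suspension and passage 11 minus passage 4, with bars of 1 SE and filled points where the adjusted P-value is below 0.05. Ddit3 stands farthest from 0 in both comparisons, at 2.86 for domes and -2.86 for passage 11.

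The single organoids showed how the members vary between organoids of the same culture and between the 4 sets. The ATF4 and CHOP targets Trib3 and Chac1 were higher in Sets 2 and 3 than in Sets 1 and 4, and Sdf2l1 was lower in Sets 2 and 3 than in Sets 1 and 4. All sets were fitted together and P-values were adjusted over the 6 comparisons. Between Sets 1 and 2, 6 of 10 members passed, 2 higher in Set 1 and 4 lower, where 14.3% of 13927 genes passed, 7.08% higher and 7.19% lower. Between Sets 1 and 3, 4 passed, 2 in each direction, where 9.43% of all genes passed, 4.30% higher and 5.13% lower. Between Sets 1 and 4, 1 passed, higher in Set 1, where 19.96% of all genes passed, 12.4% higher and 7.60% lower. Between Sets 2 and 4, 6 passed, 5 higher in Set 2 and 1 lower, where 12.4% of all genes passed, 7.02% higher and 5.35% lower. Between Sets 3 and 4, 3 passed, 2 higher in Set 3 and 1 lower, where 11.6% of all genes passed, 7.89% higher and 3.67% lower. Between Sets 2 and 3, both at passage 3, edgeR called none of the members, where 3.93% of all genes passed, 2.05% higher and 1.88% lower; 1 member had an unadjusted P-value below 0.05, and DESeq2 and limma-voom called none either. The sets stand for 1 mouse each, so that these tests measure the spread between organoids and not between mice, and comparisons that share a set are not independent. Markers also differed between the sets: the hepatocyte marker Ttr had means of 1352, 857, 515 and 1352 CPM in Sets 1 to 4 and the cholangiocyte marker Spp1 of 1765, 3103, 3418 and 2053 CPM, Ttr passing the test for Set 3 against Sets 1 and 4 and Spp1 for Sets 2 and 3 each against Sets 1 and 4. Cholangiocyte markers did not move as one. Krt19 had means of 612, 362, 372 and 477 CPM in Sets 1 to 4, and passed the test as higher in Set 1 than in Sets 2 and 3. Of the 10 cholangiocyte markers, 4 were higher and 2 lower in Set 1 than in Set 2, and 1 higher and 2 lower than in Set 3. The part of these marker differences in the members' differences was not tested.

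Hspa5, the chaperone, had a mean of 1334 ± 547 CPM (SD) in Set 1, 1041 ± 437 in Set 2, 1056 ± 183 in Set 3 and 803 ± 145 in Set 4. In Set 1 it ran from 573 over a median of 1321 to 2212 CPM, in Set 2 from 561 over 940 to 2028 CPM, in Set 3 from 848 over 1080 to 1313 CPM and in Set 4 from 523 over 797 to 1019 CPM. The ranges overlapped throughout. The difference between Sets 1 and 4 passed the test (0.73 ± 0.20, adj. P = 0.0117), but not when all 42 organoids were used.

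Sdf2l1 separated the sets into pairs. It was at 65.7 ± 15.3 CPM in Set 1, 28.2 ± 13.5 in Set 2, 27.7 ± 8.24 in Set 3 and 72.4 ± 17.6 in Set 4. The lowest organoid of Set 4 had 45.8 CPM and the highest of Set 3 had 39.2 CPM, while Set 2 reached 55.7 CPM. Sdf2l1 was higher in Set 1 than in Set 2 (1.18 ± 0.21, adj. P = 0.000122) and Set 3 (1.23 ± 0.26, adj. P = 0.00126), and lower in Set 2 (-1.32 ± 0.19, adj. P = 6.02e-06) and in Set 3 (-1.38 ± 0.25, adj. P = 0.000192) than in Set 4.

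Dnajb9 and Herpud1 lay within narrower ranges. Dnajb9 was at 14.8 ± 3.41, 10.03 ± 1.80, 12.5 ± 2.73 and 11.3 ± 2.24 CPM in Sets 1 to 4, and Set 1 exceeded Set 2 (0.56 ± 0.16, adj. P = 0.0141). This call of Dnajb9 was lost with no filter on low counts (adj. P = 0.0503), with libraries thinned to the smallest total (0.118) and with all 42 organoids (0.155). Herpud1 was at 87.5 ± 22.03, 84.9 ± 18.5, 68.4 ± 7.41 and 81.0 ± 21.1 CPM, and no pair of sets passed the test.

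Each of the transcription factors passed the test in 1 or 2 pairs of sets. Xbp1 was at 465 ± 186 CPM in Set 1, 346 ± 88.7 in Set 2, 282 ± 27.4 in Set 3 and 419 ± 103 in Set 4, with Set 1 above Set 3 (0.72 ± 0.23, adj. P = 0.0317). This call of Xbp1 was lost with limma-voom (adj. P = 0.0574), without organoid 1 (0.0594) or 6 (0.0794) of Set 3 and with all 42 organoids (0.171). Atf4 was at 176 ± 41.9, 275 ± 90.9, 219 ± 37.4 and 156 ± 10.0 CPM, lower in Set 1 than in Set 2 (-0.65 ± 0.16, adj. P = 0.00546) and higher in Set 2 than in Set 4 (0.81 ± 0.14, adj. P = 0.000104). The 12 organoids of Set 4 held Atf4 between 139 and 175 CPM, while the 10 of Set 2 spread from 157 to 444 CPM. Ddit3 was low everywhere, at 3.67 ± 1.395, 4.70 ± 2.01, 2.53 ± 1.70 and 1.98 ± 1.31 CPM, from 0 to 26 counts an organoid, and was higher in Set 2 than in Set 4 (1.12 ± 0.31, adj. P = 0.0126). In organoid 3 of Set 4 Ddit3 had 0 of 1316448 counts, which allows up to 2.28 CPM.

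Trib3 was at 3.76 ± 1.68 CPM in Set 1, 13.5 ± 10.7 in Set 2, 10.4 ± 6.16 in Set 3 and 4.62 ± 1.35 in Set 4. Set 2 ran from 4.24 over a median of 10.3 to 41.3 CPM and Set 3 from 3.25 over 10.01 to 20.1 CPM, while no organoid of Set 1 passed 6.21 CPM and none of Set 4 passed 7.73 CPM. Trib3 was lower in Set 1 than in Set 2 (-1.97 ± 0.34, adj. P = 7.62e-05) and Set 3 (-1.57 ± 0.39, adj. P = 0.00551), and higher in Set 2 (1.62 ± 0.29, adj. P = 0.000168) and Set 3 (1.22 ± 0.35, adj. P = 0.0183) than in Set 4. Both calls of Trib3 for Set 3 were lost without organoid 5 of Set 3 (adj. P = 0.0559 against Set 1 and 0.159 against Set 4) and with thinned libraries (0.0501 and 0.149). Chac1 had the same order of sets. It was at 2.58 ± 1.51 CPM in Set 1, 11.5 ± 8.10 in Set 2, 10.8 ± 5.14 in Set 3 and 3.59 ± 1.76 in Set 4, and organoid 2 of Set 4 had 0 of 2205212 counts, which allows up to 1.36 CPM. Chac1 was lower in Set 1 than in Set 2 (-2.20 ± 0.39, adj. P = 0.00014) and Set 3 (-2.11 ± 0.45, adj. P = 0.00112), and higher in Set 2 (1.70 ± 0.34, adj. P = 0.000539) and Set 3 (1.61 ± 0.40, adj. P = 0.00521) than in Set 4. Asns was at 31.7 ± 9.36, 61.4 ± 22.7, 41.9 ± 12.3 and 38.6 ± 6.96 CPM, higher in Set 2 than in Set 1 (-0.95 ± 0.20 for Set 1 minus Set 2, adj. P = 0.00085) and than in Set 4 (0.66 ± 0.17, adj. P = 0.00829).

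**Figure D4:**
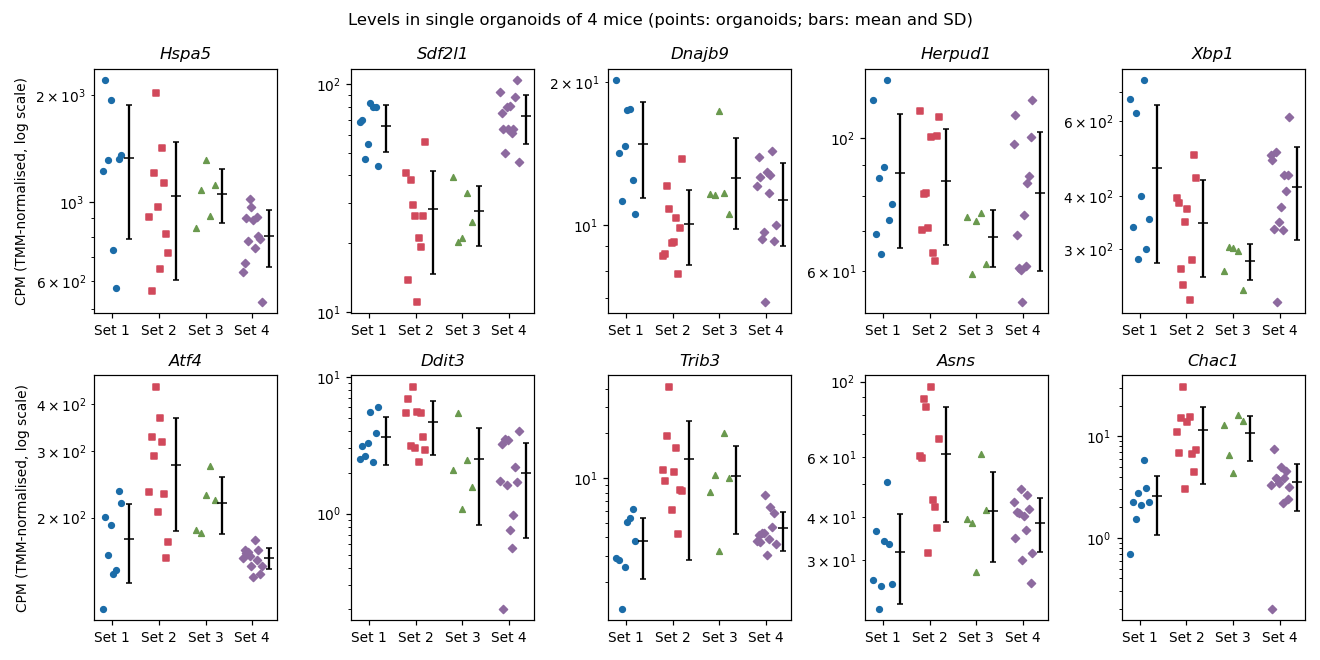
CPM of the 10 members (log axis) in the 35 single organoids, 1 point for each organoid, by set, with bars for the mean and SD of a set; the 2 organoids of Set 4 with 0 counts of Ddit3 or Chac1 are drawn at 0.2. Trib3 and Chac1 lie higher and Sdf2l1 lower in Sets 2 and 3 than in Sets 1 and 4, and organoid 4 of Set 2 is the topmost point for Trib3 and Chac1.

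One organoid contributed much of the upper range of Set 2. Organoid 4 of Set 2 had 41.3 CPM of Trib3, where the next had 19.3, and 30.8 CPM of Chac1, where the next had 15.5. It was also the highest of its set in Atf4 (444 CPM), Ddit3 (8.52 CPM) and Hspa5 (2028 CPM). Without it, the difference of Trib3 between Sets 1 and 2 was -1.58 (adj. P = 0.000246) and that of Chac1 -1.88 (adj. P = 0.000592), and between Sets 2 and 4 they were 1.22 and 1.38.

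In the ATF4 and CHOP target list the most calls lay between Set 2 and Sets 1 and 4. Of 36 tested genes, 16 were lower in Set 1 than in Set 2 and none higher (median log2 fold-change -0.64). Of all genes, 7.19% were lower and 7.08% higher there. In Set 2 against Set 4, 13 of the 36 were higher and 1 lower (0.42), where 7.02% and 5.35% of all genes were. Without organoid 4 of Set 2 the counts of the list were 13 lower in Set 1, and 9 higher with none lower in Set 2. Slc7a11 was at 10.9 CPM in Set 1, 52.7 in Set 2, 83.0 in Set 3 and 13.8 in Set 4, and Set 1 differed from Set 2 by -2.35 ± 0.35 and from Set 3 by -3.00 ± 0.39. Mthfd2, an enzyme of mitochondrial folate metabolism, was higher in Set 2 than in Set 1 (-1.24 ± 0.25 for Set 1 minus Set 2) and in Set 4 (1.18 ± 0.22). Between Sets 1 and 3, 3 of the 36 were lower and none higher (5.13% and 4.30% of all genes). Between Sets 1 and 4, 2 were higher and 6 lower (12.4% and 7.60% of all genes). Between Sets 2 and 3, 2 were higher (2.05% of all genes). Between Sets 3 and 4, 4 were higher and 2 lower (7.89% and 3.67% of all genes).

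The other lists are to be read against the shares of all genes. Higher in Set 1 were 7.08% against Set 2, 4.30% against Set 3 and 12.4% against Set 4, and lower 7.19%, 5.13% and 7.60%. Against Set 4, 7.02% were higher and 5.35% lower in Set 2, and 7.89% and 3.67% in Set 3. Between Sets 2 and 3, 3.93% passed in either direction. Of 22 genes of the ER chaperone list, 5 were higher in Set 1 than in Set 2, 3 than in Set 3 and 5 than in Set 4, and none was lower. Calr, calreticulin, was at 748 CPM in Set 1, 375 in Set 2, 343 in Set 3 and 514 in Set 4 (0.99 ± 0.17 for Set 1 minus Set 2), and Dnajc10, a disulfide reductase, at 454, 187, 216 and 253 CPM (1.28 ± 0.28). Against Set 4, 4 of the 22 were lower in Set 2 and 4 in Set 3, among them Manf (-0.64 ± 0.14 for Set 2 and -0.83 ± 0.18 for Set 3), a secreted partner of BiP, and 1 was higher in Set 2. No gene of the list passed between Sets 2 and 3, by the edgeR test. Of 18 genes of ER-associated degradation, 1 was higher in Set 1 than in Set 2, 1 higher and 1 lower than in Set 3, and 4 higher than in Set 4, with Os9, a lectin, at 283 CPM in Set 1 and 171 in Set 4 (0.73 ± 0.12). Of 20 tested sensors and eIF2 regulators, Eif2ak2, which encodes the kinase PKR, was at 111 CPM in Set 2 and 34.8 in Set 4 (1.69 ± 0.23), one of 3 that were higher in Set 2, and 3 were lower in Set 1 than in Set 2. Of the 18 heat shock chaperone genes, at most 4 passed in one direction in any pair of sets.

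Within a set, the members differed in how much they varied from organoid to organoid. The SD of log2 CPM within sets was 0.83 for Chac1, above that of 95.1% of 1992 genes whose mean level was within 0.5 log2 units, and 0.66 for Trib3, above 86.8% of 2106 such genes. Sdf2l1 (0.48, above 80.3%) and Hspa5 (0.47, above 77.1% of 118 genes) also lay in the upper part. Dnajb9 varied least among the members, with an SD of 0.28, above only 3.52% of 2244 genes of like level. Part of the spread of Chac1, Trib3 and Ddit3 is counting error, since single organoids had as few as 0 counts of Chac1 and Ddit3 and 5 of Trib3.

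Correlations between members were computed over the organoids of Sets 1, 2 and 4, each alone, since Set 3 had 5 organoids. None of the 135 relations passed the adjustment for multiple tests, by Pearson's r or by Spearman's rho, and 18 had an unadjusted permutation P-value below 0.05. The lowest adjusted P-value was 0.0763. Herpud1 and Xbp1 had r = 0.91, 0.68 and 0.71 in Sets 1, 2 and 4 (rho = 0.95, 0.66 and 0.64), with permutation P-values of 0.000942, 0.0354 and 0.00831 and adjusted P-values of 0.0763, 0.318 and 0.160. Without the 2 organoids farthest from the median of Herpud1, r was 0.75, 0.59 and 0.62. Hspa5 and Xbp1 had negative values, r = -0.60, -0.80 and -0.78 (rho = -0.81, -0.79 and -0.69; permutation P = 0.121, 0.00536 and 0.00294; adjusted 0.494, 0.157 and 0.132), and r was -0.59, -0.85 and -0.59 without the 2 farthest. Trib3 and Chac1 had r = 0.87 in Set 2 (rho = 0.89, permutation P = 0.00113, adjusted 0.0763, r = 0.90 without the 2 farthest), 0.55 in Set 1 and -0.05 in Set 4.

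Depth was examined in the same way. Within Sets 1, 2 and 4, none of 30 relations of a member with the log10 total count passed the adjustment, by Pearson's r or Spearman's rho, and 8 had an unadjusted permutation P-value below 0.05. As a description over the 35 organoids, after the mean of each set was taken off, r with the log10 total count was 0.58 for Herpud1, 0.55 for Xbp1, 0.46 for Dnajb9, -0.44 for Atf4 and -0.15 for Hspa5. The same description over the 35 organoids gave r = 0.74 for Herpud1 with Xbp1, -0.66 for Hspa5 with Xbp1, 0.63 for Asns with Chac1 and 0.56 for Trib3 with Chac1. Organoids of a set share 1 mouse and culture, and each is its own library. The part of depth in the relations was not tested beyond thinning all libraries to the smallest total, after which again none of the 135 relations passed and 13 had an unadjusted P-value below 0.05.

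**Figure D5:**
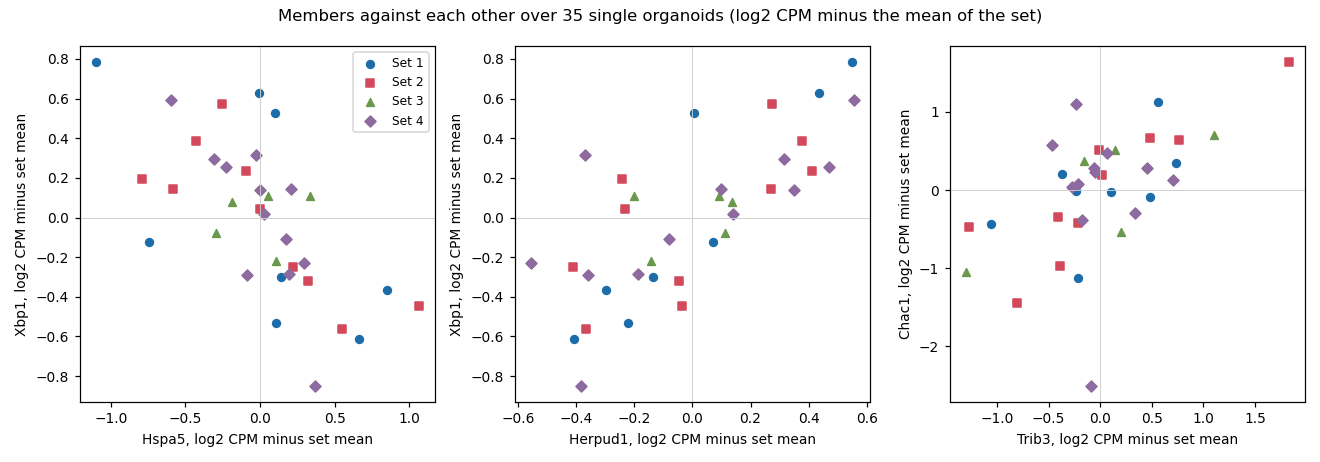
Log2 CPM minus the set mean in 35 single organoids, 1 point for each organoid coloured by set, for Hspa5 and Xbp1, Herpud1 and Xbp1, and Trib3 and Chac1. The first cloud slopes down (r = -0.66) and the other clouds slope up (0.74 and 0.56).

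The genes whose pattern over the 35 organoids was most like that of Hspa5, among 6479 genes compared after the set mean was taken off, were Tars (r = 0.94), Slk (0.93), Ccdc47 (0.93), Hspa4 (0.93) and Hspd1 (0.93). Hspa5 had 313 genes at r of 0.8 or more and 35 at -0.8 or less, where the median gene had 19 and 2. The genes most like Ddit3 were Chka (0.58), Lyrm9 (0.57), Baiap2 (0.56), Emsy (0.55) and Psmb7 (0.53), at counts of Ddit3 that are too low to read an order from.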

How the data were processed

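Gene counts were used as deposited by the authors for 6 bulk cultures in domes or suspension, Sets 1, 3 and 4 at passages 4 and 11, and 42 single organoids. The authors made 3′-end libraries with UMIs and processed them with zUMIs, STAR, SAMtools 1.9 and featureCounts on mm10, with down-sampling within zUMIs, and normalised single-organoid input by Actb qPCR. The sources used here do not say whether the tables hold UMIs or reads. Down-sampling and low input raise the counting error of low genes. Groups came from the sample labels, the passages of single organoids and the 35 kept of 42 from the study's methods. Technical replicates were summed.

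Genes were kept by filterByExpr (minimum count 3), scaled by TMM and tested with edgeR 4.0.16 quasi-likelihood F-tests in R 4.3.3 with Benjamini-Hochberg adjustment over all genes tested, at 0.05, and for single organoids over all 6 comparisons. This replaced the study's limma-voom (limma 3.58.1), run as an alternative together with DESeq2 1.42.0. Other alternatives were other size factors, no filter, a minimum count of 10, thinning to the smallest total and replicate blocks. Single technical replicates, all 42 organoids and adjustment within each comparison were also used. Each bulk culture and each organoid of Set 3 was left out in turn. Organoids of Sets 1, 2 and 4 were not, other than organoid 4 of Set 2. The fits were tested on simulated data. SE were derived from the F statistic. Replicates were compared before use, and no pair agreed within sampling noise. Bulk replicates are cultures, and P-values measure the spread between these samples. Limits for 0 counts assume 3 counts and cover counting error only. Correlations used log2 CPM (prior count 2) with two-sided permutation P-values, exact for Set 1 and with 100000 resamples for Sets 2 and 4.

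Numbers pair the passage samples because a Set is the same animal at both passages (correlations of same-numbered deviations 0.110, 0.0283 and 0.108). For dome and suspension cultures of the same number all 3 correlations were above 0.1 (0.153, 0.165 and 0.191), and they were treated as pairs. A known pair, Set 3, had 0.0283, so this cutoff does not decide pairing. The paper describes pools A, B and C and the same organoids in both formats, but the labels do not tie numbers to pools. The reported fits have no block and so leave pairing out. Blocked values are given where they change a call.

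Members and gene lists were chosen with earlier results of these data known. From each of the 5 pathway lists, up to 4 called genes with the largest fold-change and a mean log2 CPM no lower than 3 were open to naming in each comparison. Genes most alike are the 5 with the highest r to Hspa5 and to Ddit3 among genes of mean log2 CPM no lower than 4. The analyses of Sets 3 and 4 alone and of Set 2 without organoid 4 were added after the data were seen. A search of the proteins for ER retrieval signals was not run here.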

Additional observations from a re-analysis of the deposited data

Results flagged for a closer look

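Dixon's gap ratio on CPM was applied to 30 groups of single organoids, the 10 members in each set of 5 to 10 organoids. In 4 groups an organoid stood far from the rest of its set. The rate of about 5% of groups flagged by chance assumes normally distributed, independent values. CPM of low genes, and members measured in the same organoids, may not meet this, so the flags are not set against that rate. Organoid 4 of Set 2 had 41.3 CPM of Trib3 and 30.8 CPM of Chac1, the highest of 10 organoids in both. Organoid 6 of Set 1 had 5.85 CPM of Chac1, the highest of 8, where the next had 3.11 CPM. Organoid 4 of Set 3 had 17.4 CPM of Dnajb9, the highest of 5, where the next had 11.7 CPM.

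Passage 11 over passage 4 gave a log2 ratio of 0.17 for Xbp1 and 0.51 for Chac1 in Set 1, while Sets 3 and 4 went the other way, at -0.54 and -0.23 for Xbp1 and at -1.42 and -2.85 for Chac1. With 1 pair of samples a Set, this difference between Sets was not tested.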

How the results depend on the processing

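No member changed direction as a call, and of 119 counts of called members under the alternatives, 106 stayed within 1.5 times the count reported and 13 did not. Between passages, 5 members were called. No filter on low counts gave 9 and the replicate block 8, and leaving out 1 culture gave 3 to 9. Between domes and suspension, leaving out 1 culture gave 1 to 3 of the 3 calls. Between Sets 1 and 4, the 1 call became 0 with the organoid number as a replicate block (2 members at an unadjusted P-value below 0.05 by edgeR) and 0 with all 42 organoids (3 members), and 2 with adjustment within each comparison. Between Sets 2 and 3, leaving out 1 organoid of Set 3 gave 0 to 1 calls, the 1 being Asns (adj. P = 0.0467) without organoid 5. Between Sets 3 and 4, the block left 1 of 3. The causes were not tested, other than that leaving out samples leaves fewer. Shares over all genes were computed for the reported fits alone, so counts under the alternatives have no share beside them. Organoid numbers only name organoids: the median correlation of 35 same-numbered pairs was 0.0564 (-0.366 to 0.414), and 3 of 29 organoids correlated best with their own number. The culture and Set blocks changed no member call beyond those given above. All 274 correlation results under other prior counts or thinning stayed on the same side of the threshold. Of 595 list counts, 474 stayed within 1.5 times. Ddit3, Chac1 and Trib3 in single organoids are limited by depth.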
